A study of Mus musculus with 6 samples.

Results

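The 10 genes described here take part in the transport, storage or release of iron, in freeing it from haem, or in controlling its release. They are Slc40a1, Cp, Hamp, Fth1, Ftl1, Trf, Tfrc, Steap4, Hmox1 and Slc11a1. Each was found by its symbol among the 34472 annotated transcript clusters of the array, a transcript cluster being the set of probes summarised for one gene. All 10 were measured. Ftl1 had 3 clusters and was represented by the brightest, and the other genes had 1 each.

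The RNA came from transgenic mice in which the CD11b promoter, active in myeloid cells, drives the ribosomal protein RPL10a fused to Flag and EGFP. Translating ribosome affinity purification (TRAP) recovers the tagged ribosomes with the mRNA bound to them. One group was injected with saline. The other received lipopolysaccharide (LPS), the endotoxin of Gram-negative bacteria, at 5 mg/kg, and RNA was taken after 24 h. Mice of both groups carried the transgene, were aged 2 to 3 months and were of both sexes in equal numbers. Each group had 3 biological replicates, hybridised to 1 array each, and the labels give 5 mice for every sample. The sources used here do not name the tissue.

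Most iron in the body cycles through macrophages, which take up old red cells, open the haem ring and return the metal to transferrin in the plasma. Ferroportin is the only known exporter of free iron from cells, and the peptide hormone hepcidin triggers its destruction. During infection, hepcidin rises in the liver and iron is held back inside macrophages, away from microbes. In cells of the brain, microglia and oligodendrocytes are known to be rich in iron, and astrocytes make the ferroxidase ceruloplasmin. The untranslated regions of ferritin, ferroportin and transferrin receptor mRNA carry iron-responsive elements, so iron can change how much of these mRNAs is bound to ribosomes.

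Cp, with a signal about 3.11-fold higher after LPS, was the one member whose 95% interval left out 0, and it did not pass the test across all clusters. Cp, Hmox1 and Slc11a1 had higher signals in all 3 LPS arrays than in any saline array. This made 3 of 10 members, where 3.61% of all clusters behaved so, and 0 of 10 lay wholly below, against 3.1%. No member passed limma's adjusted p of 0.05 over all clusters in either direction. Of all clusters 0.0029% passed, which was 1 cluster, that of Ifi44. With the replicate number as a block 3 clusters passed, or 0.0087%, with 0 members among them. At an unadjusted p under 0.05, 1 of 10 members passed (Cp), against 2.26% of all clusters. The median difference of the members, LPS minus saline, was 0.33 in log2 units, against -0.002 over all clusters, and 7 of 10 were positive, against 49.6%. The median was 0.11 without LPS 3. Because the members were chosen with earlier results of these data known, these comparisons describe the list and do not test it. Every member had the same limma adjusted p of 0.9999.

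**Figure D1:**
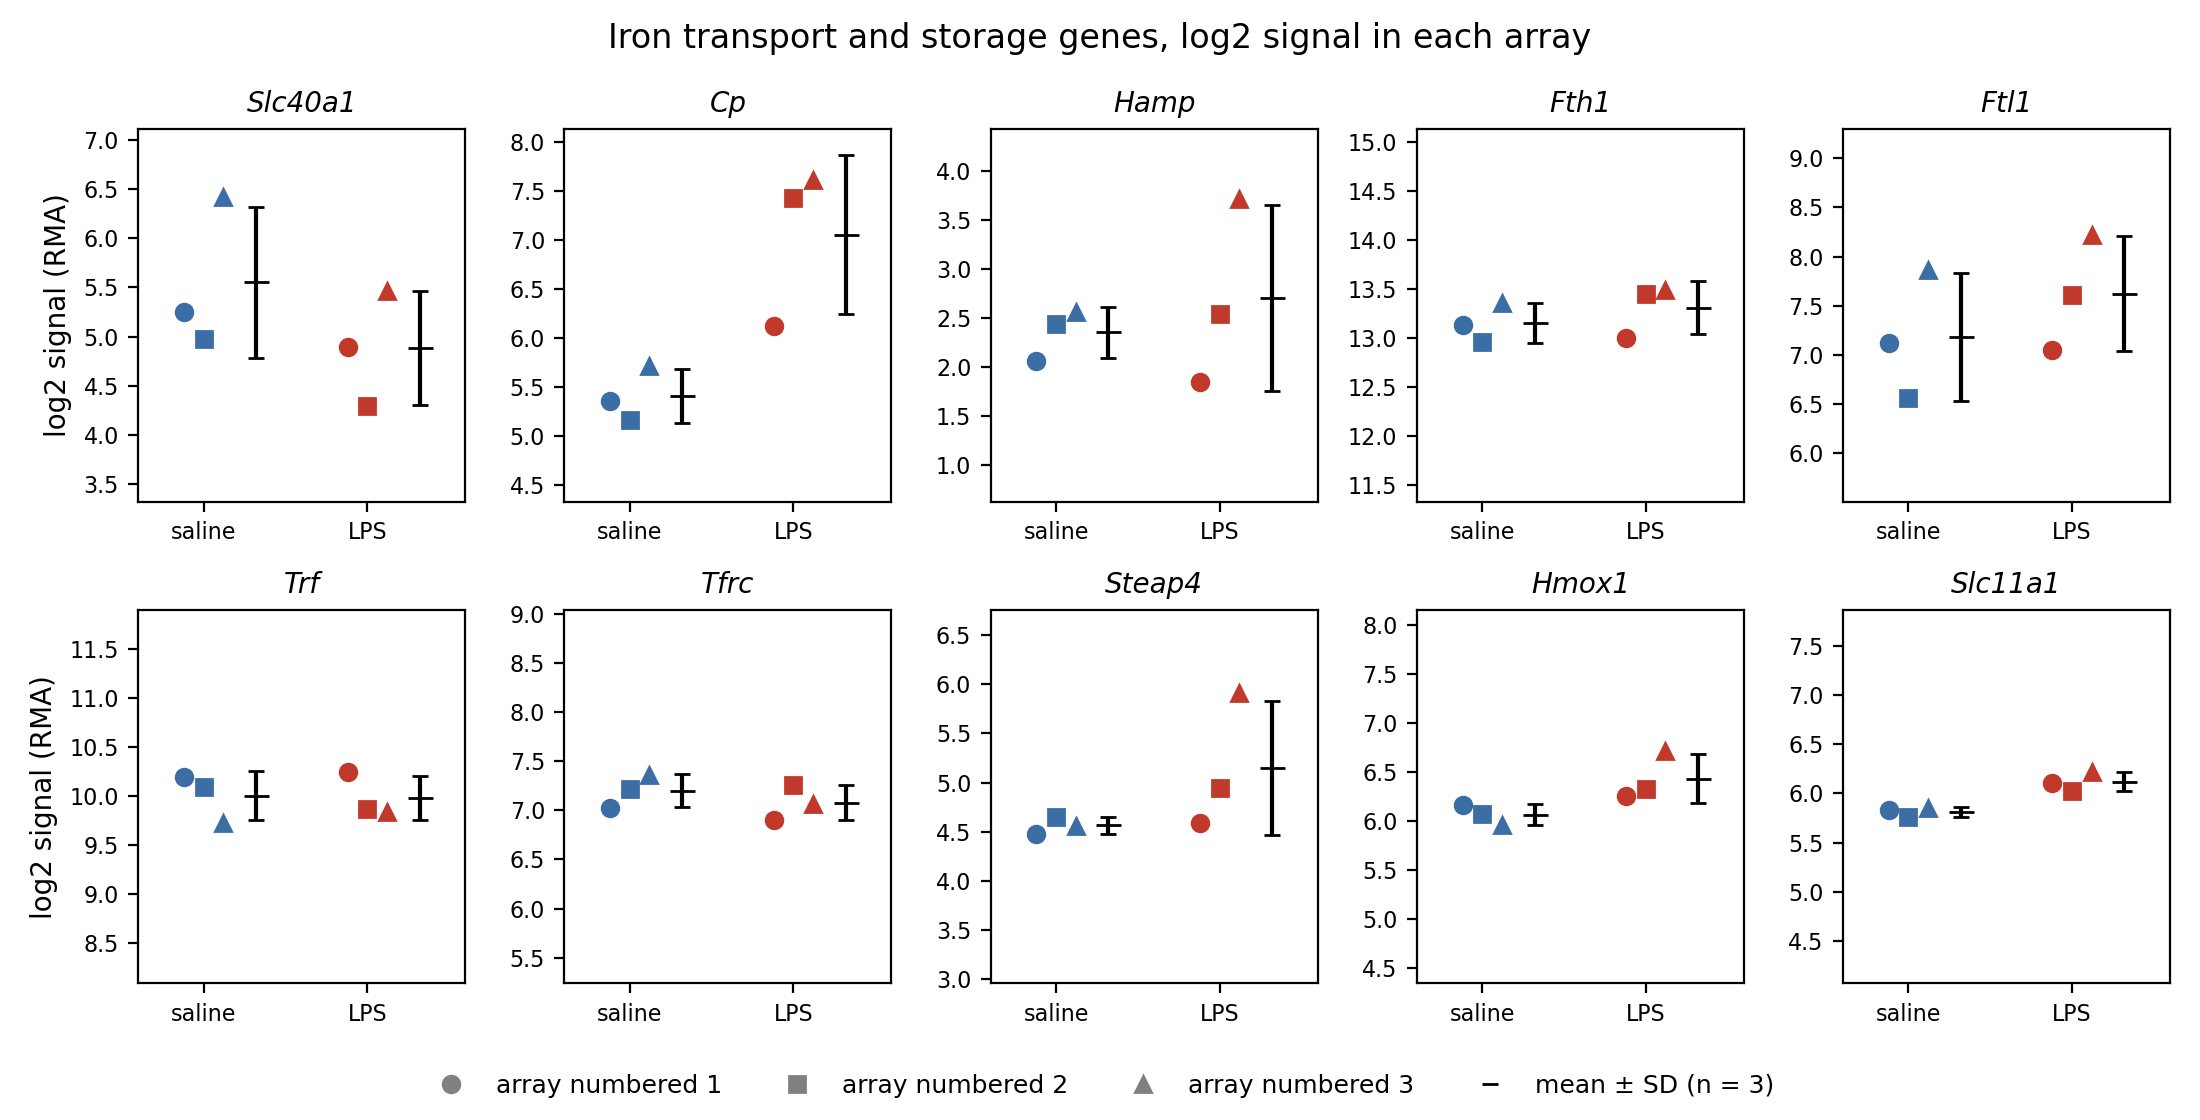
Log2 signal of each of the 10 genes in the 3 saline (blue) and 3 LPS (red) arrays, with marker shapes for the array number and black bars for the mean ± SD (n = 3). Every panel spans the same number of log2 units, so spreads can be compared. The groups are apart in Cp, Hmox1 and Slc11a1 and overlap in the other 7 genes.

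Arrays differed in ways the groups do not explain. The median signal was 5.35 in saline 3 and 5.42 in LPS 3, against 5.15 to 5.19 in the other 4 arrays, and these 2 arrays also stood apart from the rest on the first principal component, which held 53.2% of the variance. LPS 3 was the highest of the 6 arrays in 7 of the 10 members. Marker genes showed RNA of several cell types. The mean log2 signal over 8 neuron markers was 10.94 to 11.09 after saline and 10.94 to 11.05 after LPS, and that over 8 resting microglia markers was 6.58 to 6.88 after saline and 6.17 to 6.58 after LPS. Each probe set has its own brightness, so such levels cannot be read as shares of cell types. In such RNA, fewer cells of a type and less RNA per cell cannot be told apart.

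Slc40a1 encodes ferroportin, the exporter. Its log2 signals were 5.25, 4.98 and 6.42 in saline 1, 2 and 3, and 4.89, 4.30 and 5.46 in LPS 1, 2 and 3. The groups overlapped, because LPS 3 was above saline 1 and saline 2. Within each number the LPS array was below the saline array, by log2 differences of -0.36, -0.68 and -0.96. The labels do not say what a number marks, so this depends on how the arrays are paired. Slc40a1 was the 1 member of 10 lower in all 3 same-numbered pairs, against 13.5% of all clusters. The mean difference was -0.67 ± 0.41 (SE), with a 95% interval from -1.61 to 0.27 (limma unadjusted p = 0.141). With the replicate block, which rests on the same pairing, the SE was 0.15. The limma unadjusted p was then 0.00341 and the adjusted p 0.524. The difference was -0.23 without saline 3, -0.37 without LPS 2 and -0.96 without LPS 3. The resting microglia markers were lower after LPS in 8 of 8 genes by their means, and the part of this in the Slc40a1 difference was not tested. Of the 8 monocyte and macrophage markers 5 had a positive difference, and their list mean was 4.27 to 4.39 after saline and 4.25 to 4.59 after LPS.

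Cp encodes ceruloplasmin, a copper-carrying ferroxidase that oxidises the iron leaving through ferroportin so that transferrin can bind it. It is also an acute-phase protein of plasma. Cp had log2 signals of 5.36, 5.16 and 5.71 in saline 1, 2 and 3, and 6.12, 7.42 and 7.61 in LPS 1, 2 and 3. The groups did not overlap, and LPS 1 was nearest to the saline group. The mean went from 5.41 ± 0.28 to 7.05 ± 0.81 (SD, n = 3 each), a difference of 1.64 ± 0.37 (SE) or 3.11-fold, with a 95% interval from 0.79 to 2.49. By unadjusted p (0.00205) Cp ranked 58 among all clusters. Its adjusted p was 0.281 with the replicate block and 0.0552 without LPS 1, the lowest in any alternative. Leaving out 1 array moved the difference between 1.36 (without LPS 3) and 2.10 (without LPS 1).

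The authors' deposited table gives Cp a fold of 4.35, from bi-weight averages of 5.39 and 7.51. A bi-weight average gives less weight to an array far from the others, and the mean of the 3 LPS arrays lay at 7.05. The averages in the authors' deposited table thus differ by 2.12 log2 units, close to the 2.10 found here when LPS 1 was left out.

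Most astrocyte markers had differences of the same sign as Cp. Of 8 astrocyte markers 6 had a positive difference and 2 a negative one, from -0.19 to 1.19, with a median of 0.19. The list mean, which includes Gfap, was 8.33 to 8.57 after saline and 8.58 to 8.83 after LPS. Saline 1 (8.575) and LPS 2 (8.580) nearly met. Gfap, the intermediate filament of astrocytes, had the largest difference, 1.19 ± 0.28 (SE). It was the only gene of the list whose groups did not overlap. The hepatocyte list, for the organ that makes plasma ceruloplasmin, had a mean of 5.26 to 5.43 after saline and 5.38 to 5.42 after LPS. This level is raised by Ttr, also a choroid plexus marker, with a mean of 11.67 in each group. Of 8 hepatocyte markers 5 had a positive difference, with a median of 0.06. Ahsg of this list had all LPS arrays above saline (0.18 ± 0.14 SE). Alb, the hepatocyte gene of serum albumin and named here after its values were seen, had signals between 3.66 and 4.25 in all 6 arrays. The part of astrocyte or hepatocyte RNA in the Cp difference was not tested.

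**Figure D2:**
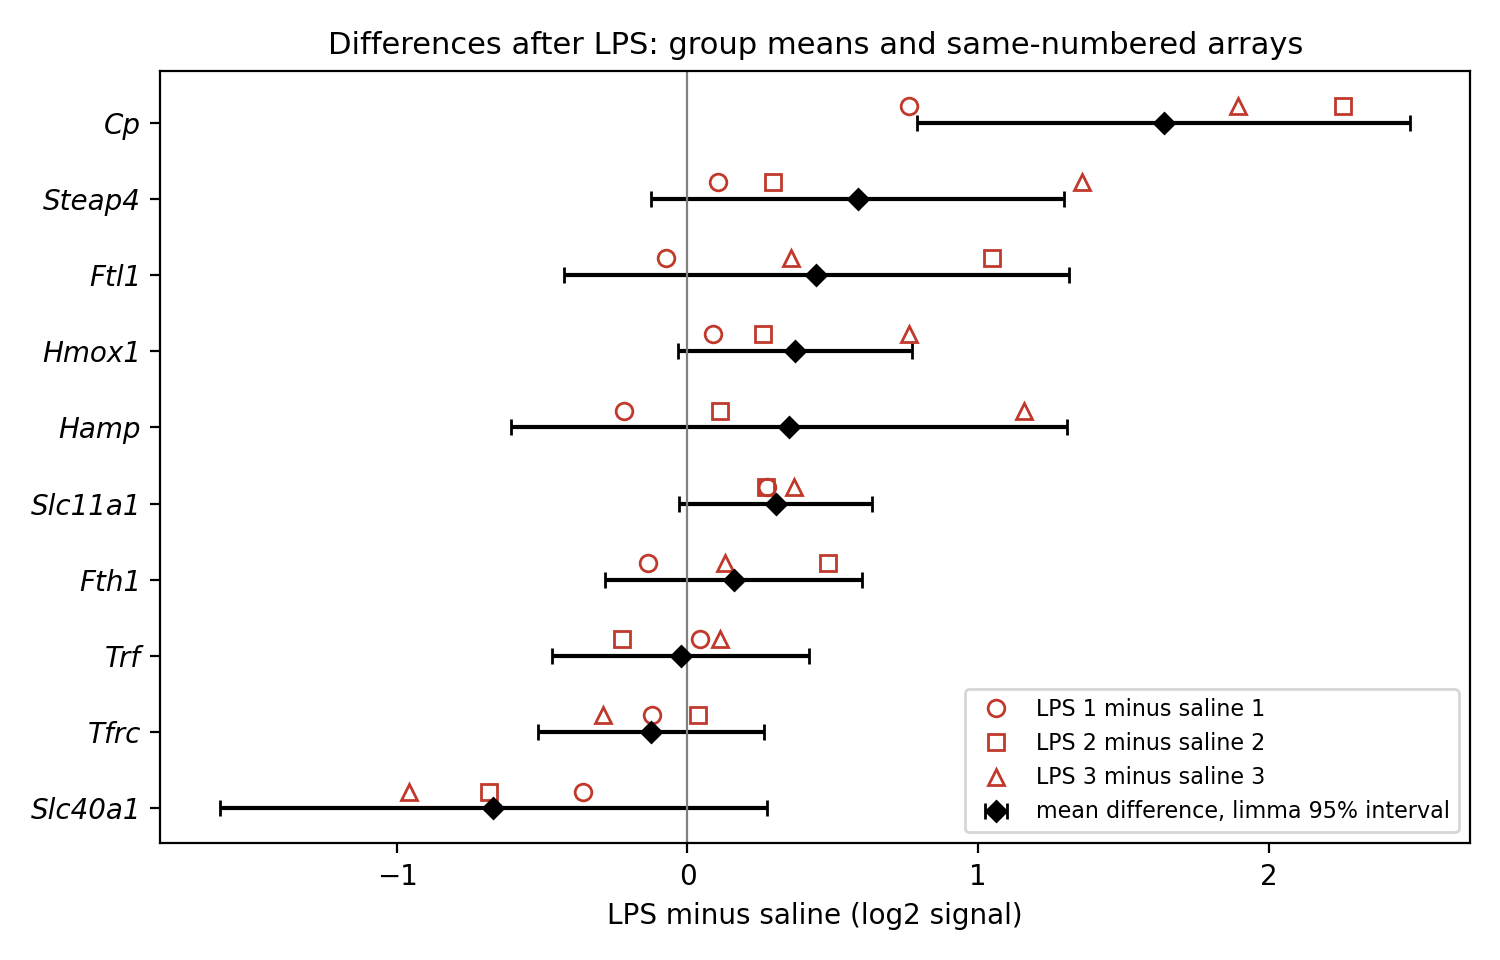
LPS minus saline in log2 signal for each gene, with diamonds for the difference of group means, bars for limma's 95% interval and open red symbols for the 3 same-numbered pairs. The interval of Cp (0.79 to 2.49) is the only one that leaves out 0, and in Slc40a1 all 3 pairs lie below 0.

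Promoter windows were searched for motifs of factors known from inflammation and iron control. RefSeq windows (GRCm38.p6) were held for 7 of the 10 genes, with 10 windows in all. None was held for Slc40a1, Trf or Hmox1, so these genes were not searched. The 250 bases before each annotated start were searched on both strands for 5 motifs. The STAT motif TTCNNNGAA was in 2 of the 10 windows, against 7.02% of all 32851 RefSeq windows. The C/EBP motif TTGCNNAA was in 3 (9.56% of all), the BMP-response motif GGCGCC in 2 (9.59%) and the NF-kB motif in 2 (3.9%). The antioxidant-response core TGACNNNGC was in 0 of these 10 windows (10.2% of all), which do not include Hmox1. No match in a member overlapped one of another motif. A match describes letters only. For Cp, shown because it had the largest difference, the 30 bases lie on the plus strand at chr3:19957168-19957197, before one of its 2 annotated starts, and the capitals mark the C/EBP match, which reads on the opposite strand.
Cp: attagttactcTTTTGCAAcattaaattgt

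Hamp encodes hepcidin, the hormone that closes ferroportin. The liver is its main source, and interleukin-6 induces it there through STAT3, while iron induces it through bone morphogenetic proteins (BMPs). For Hamp the log2 signals were 2.06, 2.44 and 2.56 in saline 1, 2 and 3, and 1.84, 2.55 and 3.72 in LPS 1, 2 and 3. LPS 3 was the highest and LPS 1 the lowest of all 6 arrays, so the groups overlapped. The difference was 0.35 ± 0.42 (SE), with a 95% interval from -0.61 to 1.31. It was -0.16 without LPS 3, so 1 array set its direction. Hamp, Steap4 and Slc40a1 lay below the median cluster mean of 5.23, Slc40a1 narrowly, with a mean of 5.22 over the 6 arrays. Hamp lay far below, with a mean of 2.53 at percentile 9.3 of all clusters, and whether it was above background was not tested. Mice carry a close relative, Hamp2, whose cluster differed by 0.06, and how far the 2 share probes was not tested. The 250 bases before the start of Hamp are shown because they hold both the BMP-response and the STAT match, in capitals in that order, on the minus strand at chr7:30944030-30944279. The STAT match spans positions -97 to -89 from the start and the BMP-response match -109 to -104.
Hamp: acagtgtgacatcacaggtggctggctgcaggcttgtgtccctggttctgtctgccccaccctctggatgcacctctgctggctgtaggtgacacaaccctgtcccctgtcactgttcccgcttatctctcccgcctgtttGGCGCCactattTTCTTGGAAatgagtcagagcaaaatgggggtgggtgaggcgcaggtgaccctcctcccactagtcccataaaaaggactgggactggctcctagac

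Ferritin, the storage shell, is built of heavy chains, which oxidise iron, and light chains, which help it to mineralise. Fth1, the heavy chain gene, had log2 signals of 13.14, 12.96 and 13.36 in saline 1, 2 and 3, and 12.9985, 13.44 and 13.49 in LPS 1, 2 and 3. The groups overlapped, with LPS 1 below saline 1 and saline 3. The difference was 0.16 ± 0.19 (SE), and its 95% interval ran from -0.28 to 0.60. Leaving out 1 array moved it between 0.063 (without saline 2) and 0.31 (without LPS 1), and it was 0.070 without LPS 3, 0.092 without LPS 2 and 0.26 without saline 3. Signals this high are near the top of the array's range, where differences can be compressed.

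Ftl1, the light chain gene, was measured by 3 clusters that did not point one way. The brightest had log2 signals of 7.12, 6.56 and 7.86 in saline 1, 2 and 3, and 7.05, 7.61 and 8.22 in LPS 1, 2 and 3, a difference of 0.44 ± 0.38 (SE). The other clusters differed by 0.27 ± 0.35 and -0.33 ± 0.32, and the mean over all 3 was 0.13. The groups overlapped in every cluster. In all 3 of them saline 3 was the highest saline array, by 1.02 over the mean of saline 1 and saline 2 in the brightest. The difference of the brightest was 0.13 without saline 2, 0.15 without LPS 3, 0.73 without LPS 1 and 0.78 without saline 3. The deposited annotation of these clusters names several light-chain loci, so their signals cannot be assigned to Ftl1 alone.

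**Figure D3:**
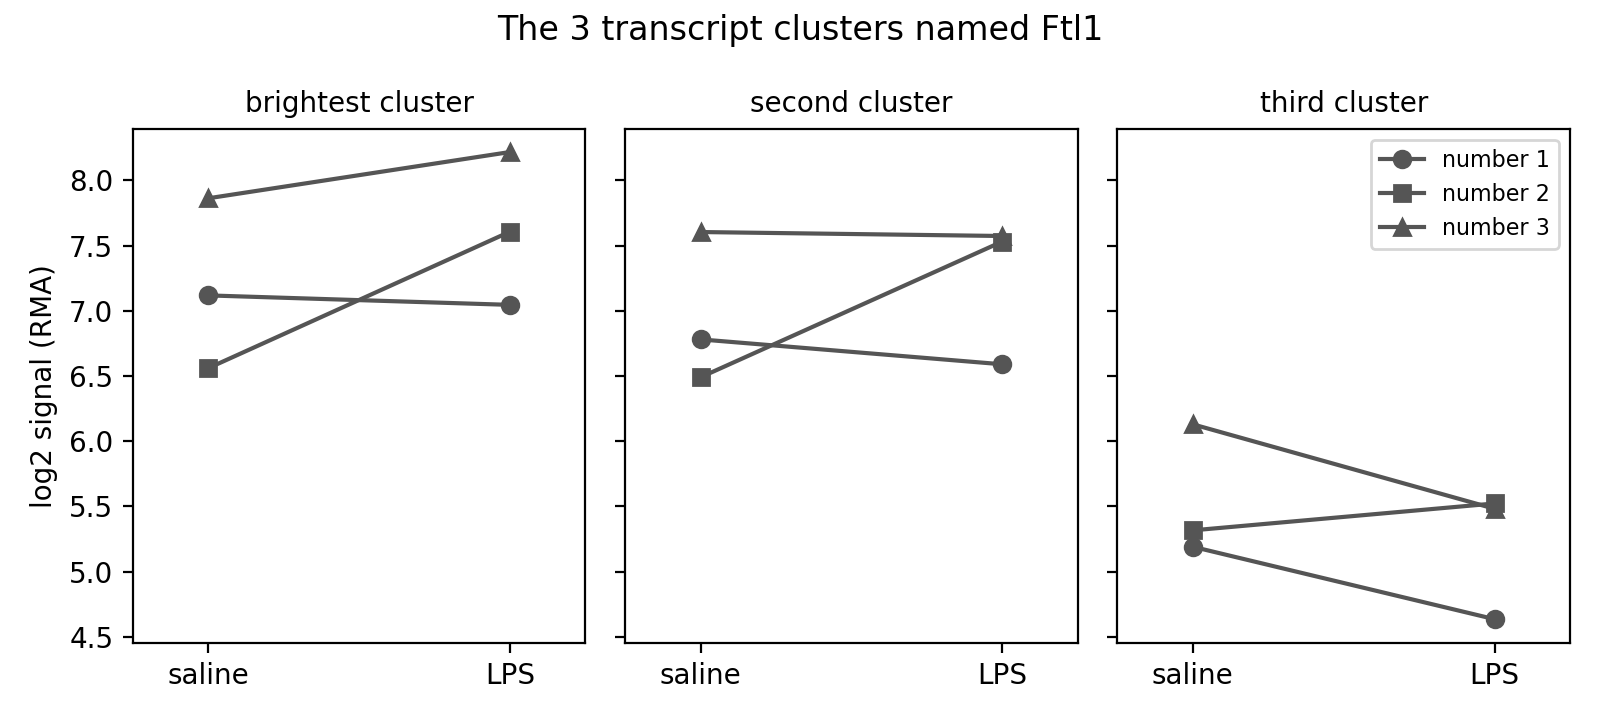
Log2 signal of the 3 transcript clusters annotated as Ftl1 in saline and LPS arrays, with lines joining arrays of the same number. The clusters differed by 0.44, 0.27 and -0.33 on average, and in the pair numbered 2 the LPS array is the higher in each panel.

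Trf encodes transferrin, which carries iron in plasma and in brain fluid. Oligodendrocytes and the choroid plexus make it in the brain. Signals of Trf on the log2 scale were 10.20, 10.09 and 9.72 in saline 1, 2 and 3, and 10.24, 9.87 and 9.83 in LPS 1, 2 and 3. The groups overlapped over most of their range, and the difference was -0.02 ± 0.19 (SE) with a 95% interval from -0.46 to 0.42. Both arrays numbered 3 were the lowest of their group. The cluster's description also names the signal recognition particle receptor subunit beside transferrin. Oligodendrocyte markers had a list mean of 9.46 to 9.95 after saline and 9.18 to 9.80 after LPS, with 6 of 8 differences negative. Choroid plexus markers had means of 6.44 to 6.63 and 6.51 to 6.55, and Ttr, the transthyretin gene of that tissue and of liver, differed by -0.006 ± 0.18 (SE).

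Tfrc encodes the receptor that takes up iron-loaded transferrin. Tfrc gave log2 signals of 7.03, 7.22 and 7.36 in saline 1, 2 and 3, and 6.90, 7.26 and 7.07 in LPS 1, 2 and 3. The groups overlapped, and the difference was -0.13 ± 0.17 (SE), with a 95% interval from -0.51 to 0.26. With 1 array left out it ran from -0.22 (without LPS 2) to -0.040 (without LPS 1). The interval of Tfrc and that of Trf thus leave out changes beyond about 0.51 log2 units in either direction under this fit, while those of Hamp and Ftl1 reach 1.31.

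Steap4 encodes a metalloreductase of the endosome and cell surface, which reduces iron and copper and is known to respond to tumour necrosis factor and interleukin-6 in fat. In Steap4 the log2 signals were 4.48, 4.65 and 4.56 in saline 1, 2 and 3, and 4.59, 4.95 and 5.91 in LPS 1, 2 and 3. The saline arrays lay within a narrow band, LPS 3 stood far above it, and LPS 1 lay within it, so the groups overlapped. The difference was 0.59 ± 0.31 (SE), with a 95% interval from -0.13 to 1.30, and all 3 same-numbered pairs were positive (0.11, 0.30 and 1.36). It was 0.20 without LPS 3. Its promoter window was the one among the member windows searched with matches to 3 kinds of motif. In the 250 bases before its start, on the plus strand at chr5:7960222-7960471, capitals mark 2 NF-kB matches, then the STAT and then the C/EBP match.
Steap4: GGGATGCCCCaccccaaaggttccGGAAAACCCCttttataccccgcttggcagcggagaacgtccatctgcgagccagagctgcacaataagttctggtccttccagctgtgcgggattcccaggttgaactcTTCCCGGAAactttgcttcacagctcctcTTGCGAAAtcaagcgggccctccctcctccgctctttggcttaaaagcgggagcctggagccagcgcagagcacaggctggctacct

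Hmox1 encodes haem oxygenase 1, the inducible enzyme that opens haem and frees its iron. Its log2 signals were 6.17, 6.07 and 5.96 in saline 1, 2 and 3, and 6.25, 6.33 and 6.72 in LPS 1, 2 and 3. The groups did not overlap, though LPS 1 exceeded saline 1 by only 0.09. The difference was 0.37 ± 0.18 (SE) or 1.29-fold, with a 95% interval from -0.03 to 0.77 (limma unadjusted p = 0.0677). Leaving out LPS 3 gave 0.23, and leaving out saline 3 as well gave 0.17.

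Slc11a1 encodes the phagosomal metal transporter NRAMP1, which pumps iron and manganese out of the compartment that holds engulfed microbes. For Slc11a1 the log2 signals were 5.84, 5.76 and 5.85 in saline 1, 2 and 3, and 6.11, 6.03 and 6.22 in LPS 1, 2 and 3. The groups were apart and both were tight, with SDs of 0.05 and 0.10. The difference was 0.30 ± 0.14 (SE) or 1.23-fold, with a 95% interval from -0.03 to 0.64 (limma unadjusted p = 0.0679). It was the steadiest of the members, between 0.25 and 0.35 when any 1 array was left out. The authors' deposited table gives an unadjusted p of 0.00841 for Slc11a1, lower than the 0.0295 for Cp in the same table. Moderation by limma pulled the small SD of Slc11a1 towards that of other clusters and so raised its p. Neutrophils and monocytes express Slc11a1. Of 8 neutrophil markers 8 had a positive difference, from 0.06 to 1.47, and in 1 of them the groups did not overlap. Their list mean was 3.99 to 4.26 after saline and 4.26 to 5.03 after LPS. The ranges overlapped, with saline 2 (4.2635) above LPS 1 (4.2630). All 8 markers were dimmer than the median cluster mean of 5.23. The part of neutrophil RNA in the Slc11a1 difference was not tested.

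Cp, Steap4, Hmox1 and Slc11a1 were higher after LPS in all 3 same-numbered pairs, which made 4 of 10 members against 13.1% of all clusters. In Cp, Hmox1 and Slc11a1 this follows from groups that do not overlap, so only Steap4 adds to the members counted before. LPS 1 of Steap4 (4.59) was below saline 2 (4.65), so its result depends on how the arrays are paired. The size of the difference was not even across arrays. In Cp, Steap4, Hmox1, Hamp, Fth1 and the brightest cluster of Ftl1, LPS 1 was the lowest LPS array and LPS 3 the highest.

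**Figure D4:**
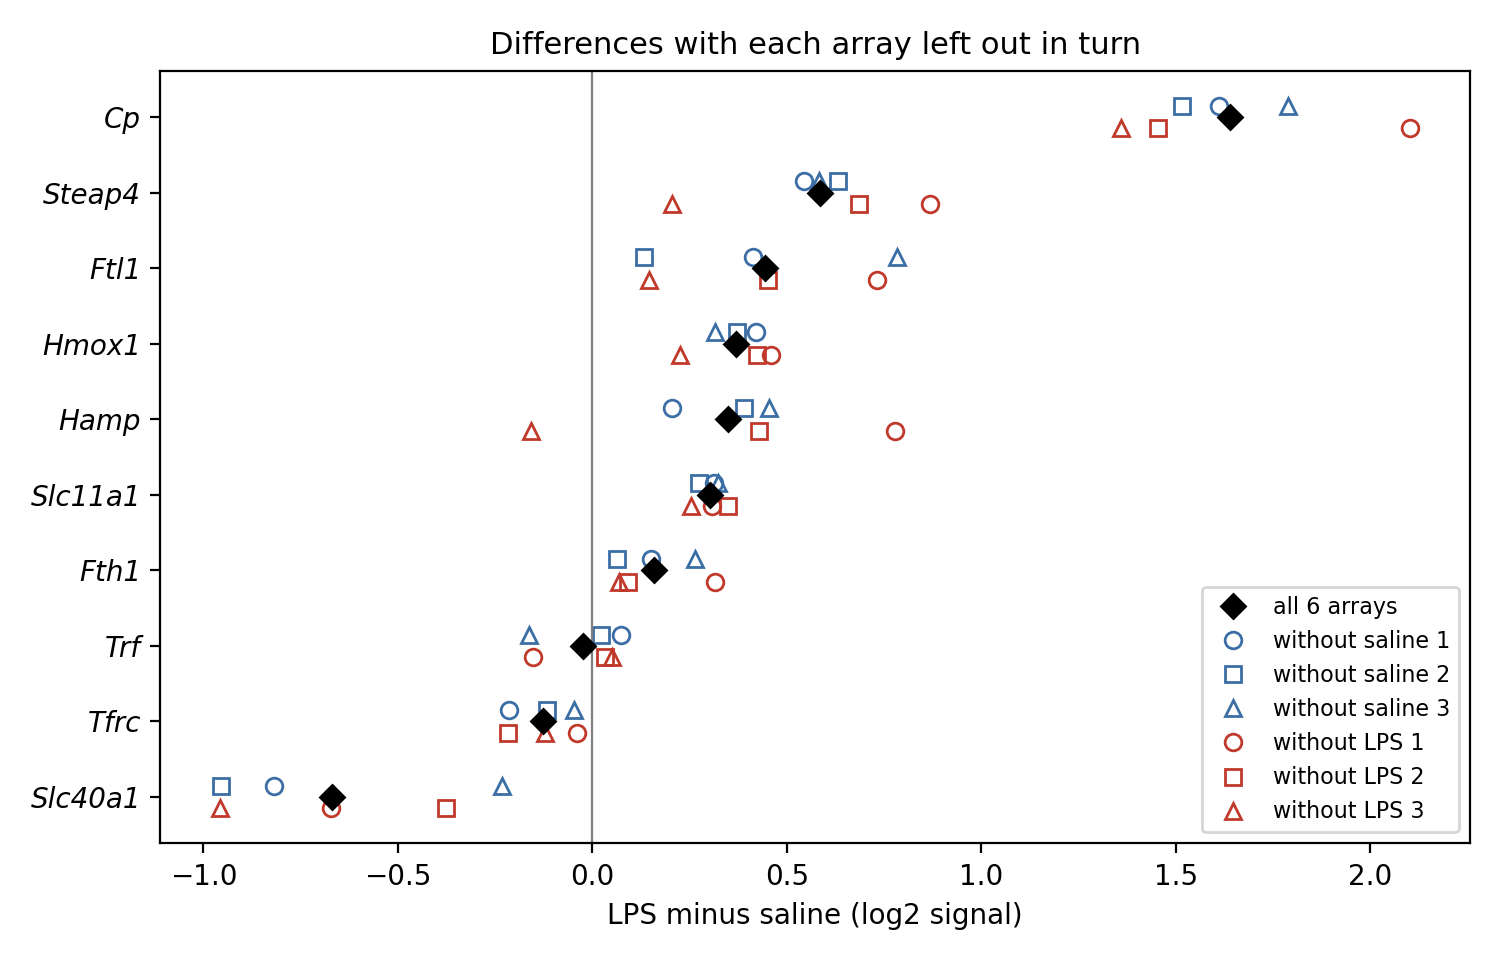
LPS minus saline in log2 signal for each gene with all 6 arrays (diamonds) and with each array left out in turn (open symbols, blue for saline and red for LPS arrays). Cp stays between 1.36 and 2.10 and Slc11a1 between 0.25 and 0.35, while Hamp and Trf fall on both sides of 0.

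Other genes of iron handling were read from the same fit in 6 lists, of which 44 of 47 genes were measured. By limma's adjusted p none passed over all clusters in either direction, 1 of 44 had an unadjusted p under 0.05, and the median difference was 0.04. The groups did not overlap in 4 of 44, with LPS above in 3 and below in 1, against 3.61% and 3.1% of all clusters.

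The gene with the small p was Lcn2, in the list of cellular iron uptake. It encodes lipocalin 2, which binds bacterial iron carriers and so keeps iron from microbes. Its log2 signals were 5.55, 5.42 and 5.26 in saline 1, 2 and 3, and 7.41, 10.1 and 11.1 in LPS 1, 2 and 3. The groups were far apart, and LPS 1 was again the LPS array nearest to saline. The difference was 4.15 ± 0.79 (SE), with a limma adjusted p of 0.567, and Lcn2 passed without LPS 1. In the same list Slc39a8, a carrier of zinc, manganese and iron, differed by 0.35 ± 0.22, and 8 of 9 genes were positive with a median of 0.11.

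No gene of the other lists passed. In the list of storage and intracellular handling, the largest differences were those of Ftmt, mitochondrial ferritin (0.14 ± 0.15 SE), and Fbxl5, the iron-sensing ubiquitin ligase subunit (-0.12 ± 0.23), among 7 genes with a median of 0.04. The ferroxidases related to ceruloplasmin, Hephl1 and Heph, differed by 0.16 ± 0.15 and 0.15 ± 0.21. In haem and haemoglobin handling the median over 10 genes was 0.04, with Cd163, the haemoglobin scavenger receptor, at 0.33 ± 0.30 and haptoglobin, Hp, at 0.15 ± 0.23. In mitochondrial iron the iron importer gene Slc25a28 differed by 0.23 ± 0.43, with a median of -0.02 over 6 genes.

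Genes that set hepcidin output had a median of -0.03 over 10. Id1, a target of BMP signals, differed by 0.39 ± 0.24 (SE) and Smad7, a feedback inhibitor of them, by -0.31 ± 0.25. Of this list Hfe, whose loss causes iron overload, had all LPS arrays above saline (0.21 ± 0.15), and the BMP receptor gene Acvr1 had all below (-0.25 ± 0.14). Both were named after their values were seen.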

How the data were processed

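Affymetrix MoGene 2.0 ST arrays were hybridised with 100 ng of ribosome-associated RNA per sample, per the labels. The submitters' processing notes name RMA and Affymetrix Expression Console for the deposited log2 values, 1 per cluster and array. RMA removes background, quantile-normalises the arrays' probes and combines them per cluster, so differences are compressed for dim and for very bright clusters. The authors' deposited comparison table holds, per the file headers, bi-weight log2 averages, a signed linear fold given as a score below -1 or above 1, a p-value and an adjusted p-value, made with Transcriptome Analysis Console 3.0 per the series' design text. No genome build is named in the sources used here. The number of arrays limits the precision.

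Of 41345 clusters, the 34472 in the comparison table were tested with limma 3.58.1 (lmFit, eBayes, two-sided, R 4.3.3), group as the only term, all 6 arrays, and Benjamini-Hochberg adjustment at 0.05. The procedure was tested on simulated data. A symbol with several clusters was represented by that with the highest mean over the 6 arrays. Named were all 10 members, the 2 genes with the largest absolute difference in each of 6 iron lists together with any past the threshold, the 3 genes whose values correlated best with the member of largest difference, and at most 4 of the brightest genes of a marker list. One gene that this rule names is not reported here. The members and lists were chosen with earlier results of these data known.

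The labels number the arrays 1 to 3 in both groups without saying what a number marks. Deviations from group means correlated across clusters by 0.27, 0.12 and 0.56 for numbers 1, 2 and 3, all above the criterion of 0.1, so a fit with the number as a block was run beside the main one. Saline 2 correlated more with LPS 1 (0.41), and saline 1 with LPS 2 reached 0.14, above the 0.12 of number 2. The values thus do not single out the same-numbered pairing for numbers 1 and 2. Nothing says more of the replicates than that they are biological, so p-values measure the spread between these samples.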

Additional observations from a re-analysis of the deposited data

How the results depend on the processing

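No member passed the threshold in any of 13 alternatives. The count of clusters past it was 1, and it was 0 over all clusters of the value table, 0 with the unmoderated test, 2 without both arrays numbered 3, 3 with the replicate block, 22 with array weights, and 0 to 12 with 1 array left out. Of the other iron genes 0 passed, and 0 to 1 with 1 array left out, the 1 being Lcn2 without LPS 1. The median difference of the members was 0.33 and 0.11 to 0.39 with 1 array left out, lowest without LPS 3. It was also 0.20 without saline 2 and 0.17 without both arrays numbered 3. In 7 members the sign held under every alternative run. Hamp reversed to -0.16 without LPS 3 and -0.054 without both arrays numbered 3 (range -0.16 to 0.78 with 1 array left out). Trf reversed to 0.033 without LPS 2, 0.050 without LPS 3, 0.073 without saline 1 and 0.021 without saline 2 (range -0.16 to 0.073). Tfrc reversed to 0.023 with array weights. The cause was not tested. The replicate block changed no call of a member. Hamp, Steap4 and Slc40a1 had no value over brighter clusters only, being dimmer than the median cluster. No detection call was used here, so whether Hamp was above background was not tested.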

Other observations

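Over the 6 arrays, the genes whose log2 values were most like those of Cp were Il6ra, the interleukin-6 receptor (Pearson r = 0.997), Cdkn1a, a cell cycle inhibitor (r = 0.996), and Zc3h12a, an RNase that limits inflammatory mRNAs (r = 0.994). In all 3 the LPS arrays lay above the saline arrays, and the differences were 0.42 ± 0.17, 1.72 ± 0.39 and 0.63 ± 0.19 (SE), none past the threshold. These 6 points fall into 2 groups and share arrays, and the genes were picked as the nearest among all clusters, so the r values describe likeness only.

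Red cell markers were also measured, since haemoglobin is the main source of haem iron. Of 7 erythroid genes 5 had a negative difference, with a median of -0.06, and the list mean was 5.11 to 5.62 after saline and 4.71 to 5.53 after LPS. Hbb-bt, a beta-globin gene named after its values were seen, had log2 signals of 3.86, 4.65 and 5.02 in saline 1, 2 and 3, and 2.42, 2.69 and 4.29 in LPS 1, 2 and 3. It differed by -1.38 ± 0.49 (SE) and did not pass. Hba-a1, the alpha-globin gene, differed by -0.22 ± 0.30.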
